A study of Homo sapiens with 3 samples.

Results

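The BTG and TOB genes encode a family of antiproliferative proteins, and 5 of them, BTG1, BTG2, BTG3, TOB1 and TOB2, were followed here among the 36817 gene identifiers of the deposited tables. The tables list them as ENSG00000133639.3, ENSG00000159388.5, ENSG00000154640.10, ENSG00000141232.4 and ENSG00000183864.4. Membership of the gene family defines the group. All 5 had enough reads to be among the 10392 genes tested. The measurement was eCLIP of DDX6, a method in which ultraviolet light fixes RNA to the proteins that touch it, RNase I cuts the RNA short, and an antibody recovers one protein with its RNA for sequencing. It was made in MOLM-13, an established human acute myeloid leukaemia cell line, grown without any treatment or genetic change that the labels name. The 2 immunoprecipitation (IP) libraries, recovered with an antibody to DDX6 and numbered as replicates by the labels (IP1 and IP2), were compared with 1 input library for which the labels give no antibody.

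BTG and TOB proteins share an N-terminal BTG domain, which binds the CNOT7 and CNOT8 deadenylases of the CCR4-NOT complex and so brings that complex to mRNA to shorten the poly(A) tail. TOB1 and TOB2 also have a long C-terminal part that binds the cytoplasmic poly(A)-binding protein PABPC1. DDX6, an RNA helicase of P-bodies, binds CNOT1, the scaffold of the same complex, and acts in translational repression and decapping. The family is known in blood cells for restraint of cell division, BTG1 and BTG2 for keeping resting lymphocytes quiescent, and BTG2 as a gene induced by p53. The data below concern the mRNAs of these genes as they were recovered with DDX6, not the action of the proteins.

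Sequencing depth came to 4643494 reads for IP1, 1244213 for IP2 and 7807540 for the input, and exonic reads made up 67.6%, 62.6% and 30.7% of these. In the input, 10 of 10 myeloid leukaemia markers had at least 10 exonic reads (43 to 1875 reads). Of 15 markers of T, B, erythroid, epithelial and fibroblast cells, 2 reached 10 reads, CD3D with 15 and COL1A1 with 27. Since no label states that the IP replicates were grown as separate cultures, the spread behind each p-value may be technical. The intervals and the read floor given below allow for counting error and nothing else. No IP with a control antibody was used here, so DDX6 binding and other differences between an IP and an input library cannot be told apart.

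All 5 mRNAs were higher in the DDX6 IP than in the input, by 1.78-fold (TOB2) to 5.87-fold (BTG3). The test was edgeR's quasi-likelihood test on exonic reads of all genes, with calls at an adjusted p under 0.05 (Benjamini-Hochberg). By the same test 16.7% of the 10392 genes were called higher and 11.4% lower. With scaling to all counted reads, introns included, 6990 genes were higher and 141 lower in place of 1739 and 1188, the median log2 fold of all genes was 1.24, and those of the members ran from 2.07 to 3.79. The median log2 fold of the family was 1.38, and that of all genes tested was 0.00. In exonic reads the order of the folds, from the highest, was BTG3, TOB1, BTG2, BTG1 and TOB2. When intronic reads were counted too, BTG3 moved from the highest to the lowest and BTG1 passed BTG2. The order was then TOB1 (log2 fold 2.78), BTG1 (2.49), BTG2 (2.40), TOB2 (1.36) and BTG3 (1.06). Levels are given as CPM, a gene's reads scaled to the exonic total of its library with TMM factors. They are not corrected for transcript length, so they are compared between libraries and not between genes.

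BTG1, a short protein of little more than the BTG domain, had 344 and 346 CPM in IP1 and IP2 and 138 CPM in the input. Both IP libraries were above the input and differed from each other by less than 1% of their level, with a mean of 345 ± 1.12 CPM (SD, n = 2). The log2 fold was 1.32 (SE 0.27, edgeR adjusted p = 6.45e-05), a 2.50-fold excess. BTG2, the closest relative of BTG1, had 587 and 450 CPM in the IP libraries and 201 CPM in the input. Its IP libraries were less alike, with IP1 the higher, but both lay above the input (518 ± 96.2 CPM, SD, n = 2). The log2 fold was 1.38 (SE 0.29, edgeR adjusted p = 0.000116), and 1.54 and 1.16 in the separate replicates.

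BTG3, also called ANA, had 74.3 and 55.5 CPM in the IP libraries and 11.3 CPM in the input. Both IP libraries stood well above the input, which held 25 exonic reads of this gene (64.9 ± 13.3 CPM, SD, n = 2). The log2 fold was 2.55 (SE 0.39, edgeR adjusted p = 2.55e-07), higher than the fold of 99.0% of the genes tested. TOB1, a member with the C-terminal PABPC1-binding part, had 141 and 127 CPM in the IP libraries and 42.5 CPM in the input. The IP libraries again did not overlap the input (134 ± 9.92 CPM, SD, n = 2), and the log2 fold was 1.67 (SE 0.29, edgeR adjusted p = 3.68e-06). TOB2, its paralog, had 118 and 138 CPM in the IP libraries and 71.0 CPM in the input.

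TOB2 was the one member with the higher value in IP2 by more than a few percent, and both values exceeded the input (128 ± 13.6 CPM, SD, n = 2). Its log2 fold of 0.83 (SE 0.27, edgeR adjusted p = 0.0138) was the smallest of the family. TOB2 was not called by DESeq2 (adjusted p = 0.211), without a read filter (edgeR adjusted p = 0.0790) or with a filter of 30 reads (edgeR adjusted p = 0.0519). Across all alternatives its adjusted p ran from 1.40e-08 to 0.211. The other 4 members were called under every alternative that gave a test.

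**Figure D1:**
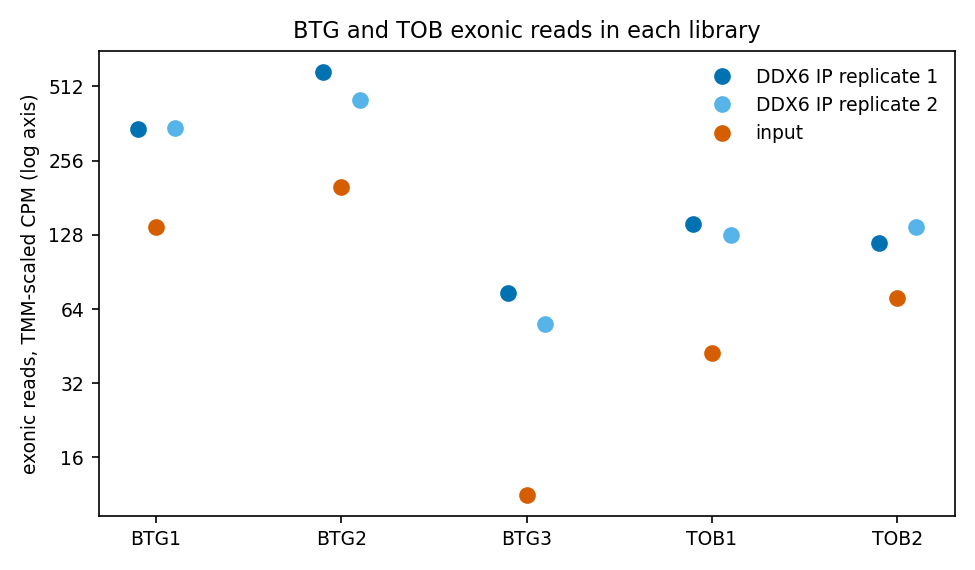
Exonic reads of each BTG and TOB gene in the 3 libraries, as TMM-scaled CPM on a log axis, with 1 point per library. For every gene both IP points lie above the input point, by the widest distance for BTG3 (74.3 and 55.5 against 11.3 CPM) and the narrowest for TOB2 (118 and 138 against 71.0 CPM); heights are not comparable between genes because length was not corrected for.

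Neighbours in the order of folds were close. The replicate log2 folds of BTG2 (1.54 and 1.16) enclosed those of BTG1 (1.31 and 1.32), so this pair did not differ beyond its spread. TOB1 (1.71 and 1.56) lay above BTG2 in the fitted log2 fold by about the SE of either gene. BTG3 (2.62 and 2.20) lay above the other members in both replicates, and TOB2 (0.73 and 0.94) below them in both. All these folds share the same input library, and no difference between genes was tested.

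**Figure D2:**
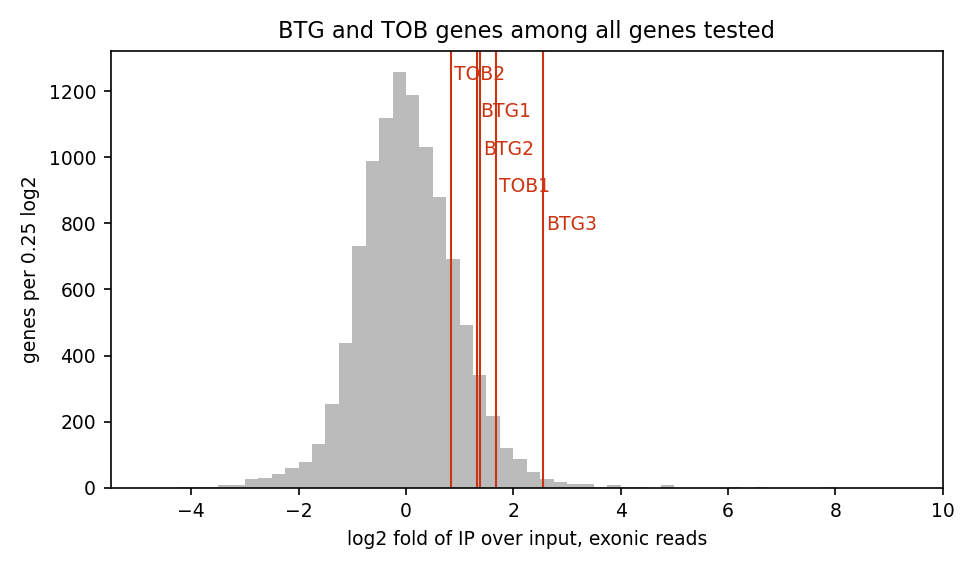
Number of genes (y axis) per bin of the log2 fold of IP over input in exonic reads (x axis), for the 10392 genes tested, with a line at each BTG and TOB gene. TOB2 at 0.83 was above 82.4% of the genes, BTG1 at 1.32 above 92.2%, BTG2 at 1.38 above 92.9%, TOB1 at 1.67 above 95.8% and BTG3 at 2.55 above 99.0%.

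The reads were next split by transcript region. Coding sequence was called higher in 5 of 5 members, 3'UTR in 5 of 5 and 5'UTR in the 4 that could be tested, in an edgeR fit over 28825 gene regions. Of all genes tested in the same regions, 51.2% were called higher in the coding sequence, 23.9% in the 3'UTR and 33.2% in the 5'UTR. Of these 3 regions, coding sequence was thus the one where a higher call was most common over all genes. Introns went the other way for 3 members, BTG2, BTG3 and TOB2, which were called lower, as were 83% of all genes tested there. BTG1 and TOB1 introns were not called. Exonic region folds are scaled over exonic and intronic reads together, which sets them higher than the whole-gene exonic folds, so they are to be read against the other regions in the same fit. With the scaling factors of the exonic fit, 3451 gene regions were called higher in place of 7054, and the coding log2 folds were 2.29 for BTG1, 2.39 for BTG2, 2.36 for BTG3, 1.57 for TOB1 and 1.38 for TOB2, over 1.5 times lower as folds than those given next.

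In coding sequence, the read counts in IP1, IP2 and the input were 321, 86 and 47 for BTG1, a 7.36-fold excess after scaling (log2 2.88, edgeR adjusted p = 6.07e-12). BTG2 had 266, 57 and 33 reads, a 7.91-fold excess (log2 2.98, edgeR adjusted p = 1.53e-11). BTG3 had 114, 27 and 15 reads, a 7.74-fold excess (log2 2.95, edgeR adjusted p = 1.79e-08). These 3 folds, between 7.36 and 7.91, lay within 1 SE of each other and above those of at least 97.0% of genes. TOB1 had 197, 42 and 43 coding reads, a 4.50-fold excess (log2 2.17), and TOB2 had 107, 49 and 38, a 3.90-fold excess (log2 1.97). The coding sequences of both TOB mRNAs were called (edgeR adjusted p = 5.91e-07 and 1.34e-05), and both log2 folds exceeded the median of 1.02 for all coding sequences.

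In the 3'UTR, where BTG2 had most of its reads, the counts were 1483, 258 and 404 for BTG2 and 619, 136 and 203 for BTG1. The folds were 3.29 (log2 1.72, edgeR adjusted p = 6.98e-06) and 3.02 (log2 1.59, edgeR adjusted p = 1.18e-05). BTG3 had 104, 14 and 10 reads, an 8.92-fold excess (log2 3.16, edgeR adjusted p = 7.58e-08), above 99.6% of all 3'UTRs tested. This value leaned on IP1: without that library the log2 fold was 2.24, and without IP2 it was 3.23. Both come with no test and with a prior count of 2, which draws folds over a low input toward 0 more than the fit does. TOB1 had 168, 32 and 32 reads, a 4.97-fold excess (log2 2.31, edgeR adjusted p = 3.76e-07), above 97.3% of 3'UTRs. TOB2 had 228, 50 and 103 reads and the lowest 3'UTR fold of the family, 2.20 (log2 1.14, edgeR adjusted p = 0.00369). The TOB2 3'UTR was not called by DESeq2 (adjusted p = 0.0740) or with the scaling factors of the exonic fit (edgeR adjusted p = 0.202). The median log2 fold of all 3'UTRs was 0.28.

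In the 5'UTR, BTG2 had the highest fold of any region of the family. It had 129 reads in IP1, 42 in IP2 and 7 in the input, a 21.1-fold excess (log2 4.40, SE 0.55, edgeR adjusted p = 7.90e-14). This fold exceeded those of 99.2% of the 2025 5'UTRs tested. The log2 folds in the separate replicates were 3.85 and 4.17. These separate values use a prior count of 2, which draws folds over a low input toward 0 more than the fit does. BTG1 had 162, 52 and 55 reads in its 5'UTR (log2 fold 1.78, edgeR adjusted p = 2.79e-05). TOB1 had 88, 27 and 19 (log2 fold 2.39, edgeR adjusted p = 5.18e-06), and TOB2 had 44, 10 and 16 (log2 fold 1.48, edgeR adjusted p = 0.0191). The median log2 fold of all 5'UTRs was 0.74, below each of these values. The TOB2 5'UTR was not called by DESeq2 (adjusted p = 0.249). BTG3 had 20, 3 and 0 reads in its 5'UTR, too few for the test; set against a floor of 3 reads for the input, IP1 was at least 7.10-fold higher.

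**Figure D3:**
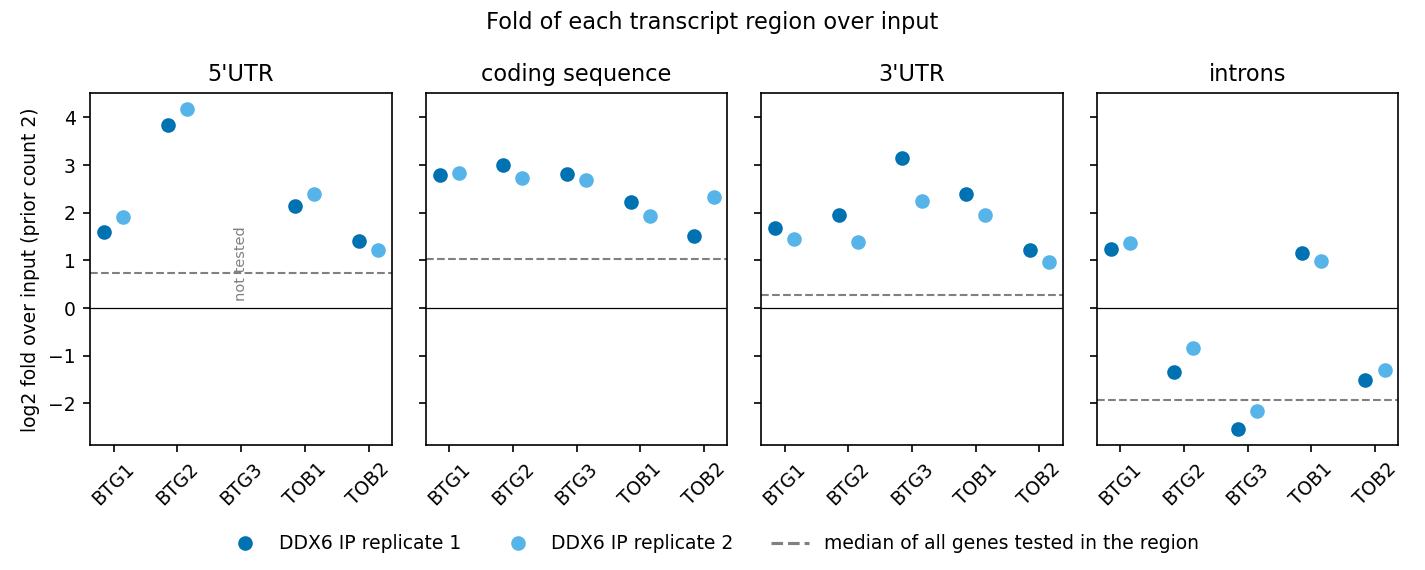
Log2 fold over input (y axis, prior count 2) of each BTG and TOB gene in 5'UTR, coding sequence, 3'UTR and introns, with 1 point per IP replicate and a dashed line at the median of all genes tested in that region. The exonic points lie above the dashed lines, BTG2 highest in the 5'UTR at 3.85 and 4.17, while introns divide the family into BTG1 and TOB1 above 0 and BTG2, BTG3 and TOB2 below 0.

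The difference between 2 regions of the same mRNA was tested directly, with each library as a block, so that the level of the mRNA drops out. The coding sequence of BTG1 exceeded its 3'UTR by 1.27 in log2 fold (SE 0.36, edgeR adjusted p = 0.00352), with differences of 1.11 and 1.39 in the 2 replicates. BTG2 showed nearly the same difference, 1.24 (SE 0.38, edgeR adjusted p = 0.00691), with 1.04 and 1.34 in the replicates. These are ordinary for this data set: 29.6% of the 6552 genes tested were called with the coding sequence above the 3'UTR, and the median difference was 0.82. TOB2 had a difference of 0.74 (SE 0.43, edgeR adjusted p = 0.178) and was not called. Its replicates were far apart, with 0.30 in IP1 and 1.35 in IP2.

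BTG3 and TOB1 had no excess of coding sequence over 3'UTR, with differences of -0.23 (SE 0.70, edgeR adjusted p = 0.825) and -0.14 (SE 0.48, edgeR adjusted p = 0.842). Lower values than these were found in 8.15% and 9.84% of the genes tested. The IP replicates of BTG3 had opposite signs, -0.35 and 0.44, and those of TOB1 were -0.17 and -0.01. The SEs are wide, and whether these 2 genes differ from BTG1 and BTG2 in this measure was not tested.

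For the 5'UTR against the 3'UTR, 5.13% of 1831 genes were called with the 5'UTR above, and no member was. BTG2 had the largest difference of the family, 2.71 (SE 0.94, edgeR adjusted p = 0.0557; 1.89 and 2.78 in the replicates), and it exceeded 95.8% of genes. With a filter of 30 reads in place of 10, which tests fewer genes, the same difference was called (edgeR adjusted p = 0.0312). BTG1, TOB1 and TOB2 had differences of 0.20, 0.11 and 0.32, all below the median of 0.51. For the 5'UTR against the coding sequence, 0.812% of 1971 genes were called with the 5'UTR above, and again no member was. BTG2 had a difference of 1.42 (SE 0.80, edgeR adjusted p = 0.399) and BTG1 one of -1.10 (SE 0.65, edgeR adjusted p = 0.425), on opposite sides of the median of -0.27.

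The same counts can be given as the division of each mRNA's exonic reads between regions, which is a description and no separate evidence. The 5'UTR of BTG2 held 6.87% of its exonic reads in IP1 (95% exact Clopper-Pearson interval 5.77 to 8.11), 11.8% in IP2 (8.61 to 15.6) and 1.58% in the input (0.636 to 3.22). Neither IP interval overlapped that of the input. The coding share of BTG2 was 14.2% and 16.0% in the IPs and 7.43% in the input, and its 3'UTR share 79.0% and 72.3% against 91.0%. BTG1 shifted toward coding sequence as well, with 29.1% and 31.4% in the IPs (26.5 to 31.9 and 25.9 to 37.2) and 15.4% in the input (11.5 to 20.0). TOB1 divided its reads alike in all 3 libraries: coding sequence took 43.5%, 41.6% and 45.7% in IP1, IP2 and the input. Over all genes coding sequence took 51.3% and 51.2% of exonic reads in the IPs and 32.7% in the input.

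**Figure D4:**
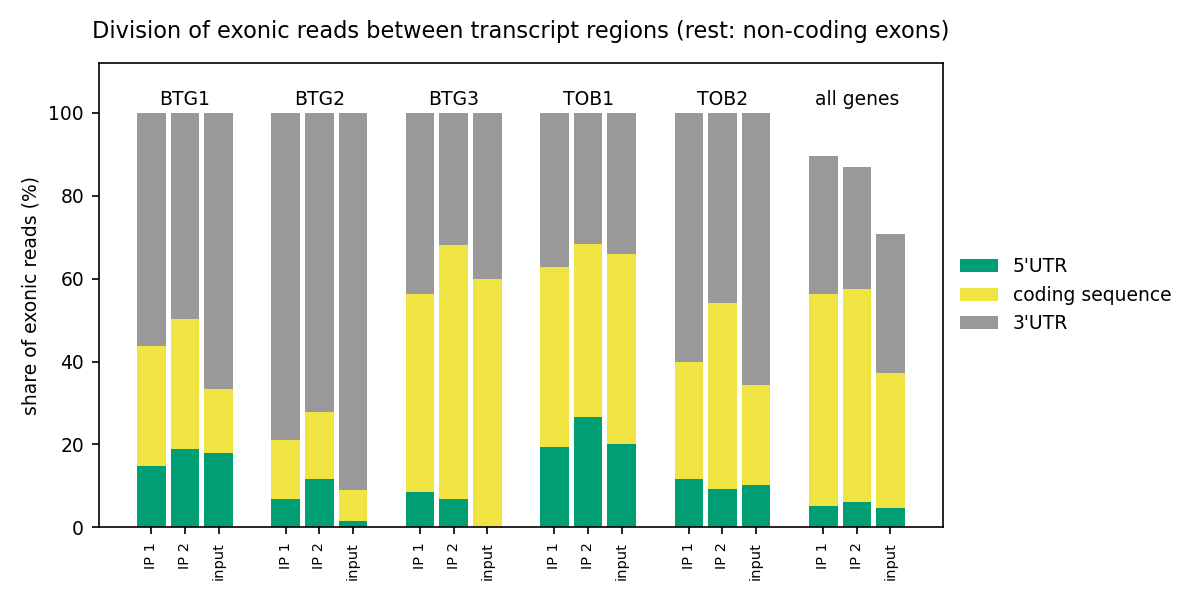
Share of exonic reads (y axis, percent) from 5'UTR, coding sequence and 3'UTR of each BTG and TOB gene and of all genes, with 1 bar per library; the bars of all genes stop short of the top because non-coding exons are not drawn. BTG2 is mostly 3'UTR in every library, with a 5'UTR share of 6.87% and 11.8% in the IPs against 1.58% in the input, whereas the coding share of TOB1 stays between 41.6% and 45.7%.

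Intronic reads come from RNA not yet spliced or from other transcripts over the same intron, and the members differed in how much of it the input held. For BTG3, 86.2% of the input reads of the gene were intronic (156 of 181), against 8.81% and 15.4% in the IPs. For TOB2 the shares were 42.3% in the input and 8.67% and 9.17% in the IPs, and for BTG2 they were 12.1%, 1.11% and 2.19%. BTG1 had 3.48% in the input and 2.48% and 2.84% in the IPs, and TOB1 had 10.5%, 5.43% and 5.61%. The share for all genes was 68.1% in the input and 27.6% and 31.3% in the IPs. Of the 5, BTG3 alone had a larger intronic share in the input than the genes as a whole.

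The intron folds followed these shares. BTG3 introns had 23, 8 and 156 reads in IP1, IP2 and the input, a log2 fold of -2.53 (edgeR adjusted p = 1.36e-08), with 97 of the input reads in the distal intron class. TOB2 introns had 36, 11 and 115 reads (log2 fold -1.50, edgeR adjusted p = 0.000865), 100 of the input reads being distal. BTG2 introns had 21, 8 and 61 reads (log2 fold -1.26, edgeR adjusted p = 0.0216). The calls for BTG2 and TOB2 introns were lost with DESeq2 (adjusted p = 0.346 and 0.122) and with scaling to all counted reads (edgeR adjusted p = 0.271 and 0.0682). BTG1 introns, with 28, 8 and 11 reads (log2 fold 1.47, edgeR adjusted p = 0.0582), and TOB1 introns, with 26, 6 and 11 (log2 fold 1.27, edgeR adjusted p = 0.120), were not called. Their folds were above 98.0% and 97.6% of all introns, whose median log2 fold was -1.93, and they were called when reads were scaled to all counted reads (edgeR adjusted p = 0.00408 and 0.0118). When intronic reads were counted with the exonic ones, the log2 fold of BTG3 was 1.06 (edgeR adjusted p = 0.00201) in place of 2.55, the lowest of the family, and those of the other 4 members were higher than with exonic reads alone. The scaling factors were then also taken over exonic and intronic reads together, so the 2 sets of folds are on different scales.

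The authors' deposited peak lists have no column names; their 2 values per peak were read, from the values themselves, as a log2 fold over the input and a -log10 p. A peak was taken as significant where both were at least 3. Every member had at least 1 significant peak in each IP list, whereas 34.3% of the genes tested had one in the list of IP1 and 29.3% in that of IP2. Of the 55 peaks on the 5 genes in IP1, 22 (40.0%) were significant, and of 31 in IP2, 12 (38.7%) were. Over all genes the corresponding shares were 11.5% of 123298 peaks and 12.9% of 62411. In the 2 lists, BTG1 had 2 and 3 significant peaks, BTG2 had 5 and 1, BTG3 had 6 and 3, TOB1 had 5 and 4 and TOB2 had 4 and 1. By the region the authors assigned, the 22 comprised 10 in coding sequence, 9 in 3'UTR, 2 in 5'UTR and 1 in a non-coding exon, and the 12 comprised 7, 3 and 2 in coding sequence, 3'UTR and 5'UTR. The coding share was 45.5% and 58.3% for the members in IP1 and IP2 and 71.1% and 67.0% for all genes, and the 3'UTR share 40.9% and 25.0% against 18.9% and 17.5%. These differences were not tested.

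By -log10 p, the highest peak on any member lay near the 5' end of BTG2. All coordinates are in build hg19, and the annotations are those of the deposited lists. In IP1 it spanned chr1:203274653-203274760 on the plus strand, 108 bases of which 71 were 5'UTR and 26 coding sequence, with a log2 fold of 4.56 and a -log10 p of 61.3. In IP2 it spanned chr1:203274654-203274801, 148 bases with 71 of 5'UTR and 67 of coding sequence, with a log2 fold of 4.64 and a -log10 p of 60.0. Both libraries thus had a peak over the same stretch of 5'UTR and coding sequence, with 107 bases in common and folds that differed by less than 0.1. A 6-base peak that touches its upstream edge in IP1, chr1:203274647-203274652 in a non-coding exon, had the highest log2 fold of the gene, 5.12. Peaks that cover both 5'UTR and coding sequence were a small part of the significant peaks, 3.38% of 14133 in IP1 and 4.19% of 8036 in IP2. BTG2 also had 3 significant 3'UTR peaks in IP1 and none in IP2. One of those in IP1, chr1:203277860-203277893 (log2 fold 3.87, -log10 p 34.7), was overlapped by an IP2 peak, chr1:203277863-203277905. That IP2 peak (2.79 and 11.2) fell short of significance by its log2 fold alone.

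On BTG1, on the minus strand of chromosome 12, significant peaks lay in coding sequence. IP1 had chr12:92537982-92538057 (log2 fold 3.58, -log10 p 32.4) and the adjoining chr12:92538058-92538174 (3.48 and 36.3). IP2 had chr12:92537986-92538058 (log2 fold 4.08, -log10 p 10.9), over the first of these. IP2 also had chr12:92539194-92539295 in coding sequence nearer the start of the gene (log2 fold 3.44, -log10 p 28.6), and a 43-base 5'UTR peak at chr12:92539474-92539516 (3.71 and 11.0). BTG1 was thus marked in its coding sequence in both libraries, and in its 5'UTR by a significant peak in 1. IP1 had peaks just under the log2 fold cut-off of 3 in these parts too. They were chr12:92539185-92539265 in coding sequence (log2 fold 2.994, -log10 p 25.0), and chr12:92539530-92539557 (2.996 and 29.3) and chr12:92539558-92539623 (2.936 and 25.5) in the 5'UTR.

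BTG3 lies on the minus strand of chromosome 21. Its peak with the largest -log10 p in IP1 was in the 3'UTR, chr21:18966069-18966185 (log2 fold 3.24, -log10 p 14.1), and IP2 had a 54-base peak within it (3.13 and 3.40). The largest fold in IP1 belonged to a 6-base 5'UTR peak at chr21:18985090-18985095 (log2 fold 4.71, -log10 p 5.24). In IP2 the leading peaks were both in coding sequence, chr21:18966433-18966485 (log2 fold 4.96, -log10 p 3.57) and chr21:18970935-18971087 (3.64 and 5.41). The significant peaks of BTG3 were spread over 5'UTR, coding sequence and 3'UTR, and the -log10 p values of this low-count mRNA were modest beside those of BTG1 and BTG2.

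TOB1 lies on the minus strand of chromosome 17. Its leading peaks in IP1 were chr17:48939872-48940025 in the 3'UTR (log2 fold 3.22, -log10 p 21.8) and chr17:48940379-48940445 in coding sequence (4.14 and 12.5). In IP2 the leading peak was in the 5'UTR, chr17:48943575-48943707 (log2 fold 4.30, -log10 p 11.5). IP1 had a peak within that 5'UTR stretch, chr17:48943626-48943707 (2.88 and 8.93), below the log2 fold cut-off of 3 alone. A 3'UTR peak of IP2 at chr17:48939831-48939882 (3.78 and 6.11) shared 11 bases with the 3'UTR peak of IP1. TOB2, on the minus strand of chromosome 22, had leading peaks in the 5'UTR (chr22:41842608-41842689, log2 fold 3.59, -log10 p 5.99) and the 3'UTR (chr22:41830767-41830875, 3.33 and 7.77) in IP1. In IP2 its one significant peak was in coding sequence, chr22:41832481-41832592 (3.83 and 8.79), and no significant TOB2 site was shared by the libraries. IP1 did have a peak over most of that coding stretch, chr22:41832472-41832589 (2.87 and 7.83), which fell below the log2 fold cut-off of 3 alone.

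**Figure D5:**
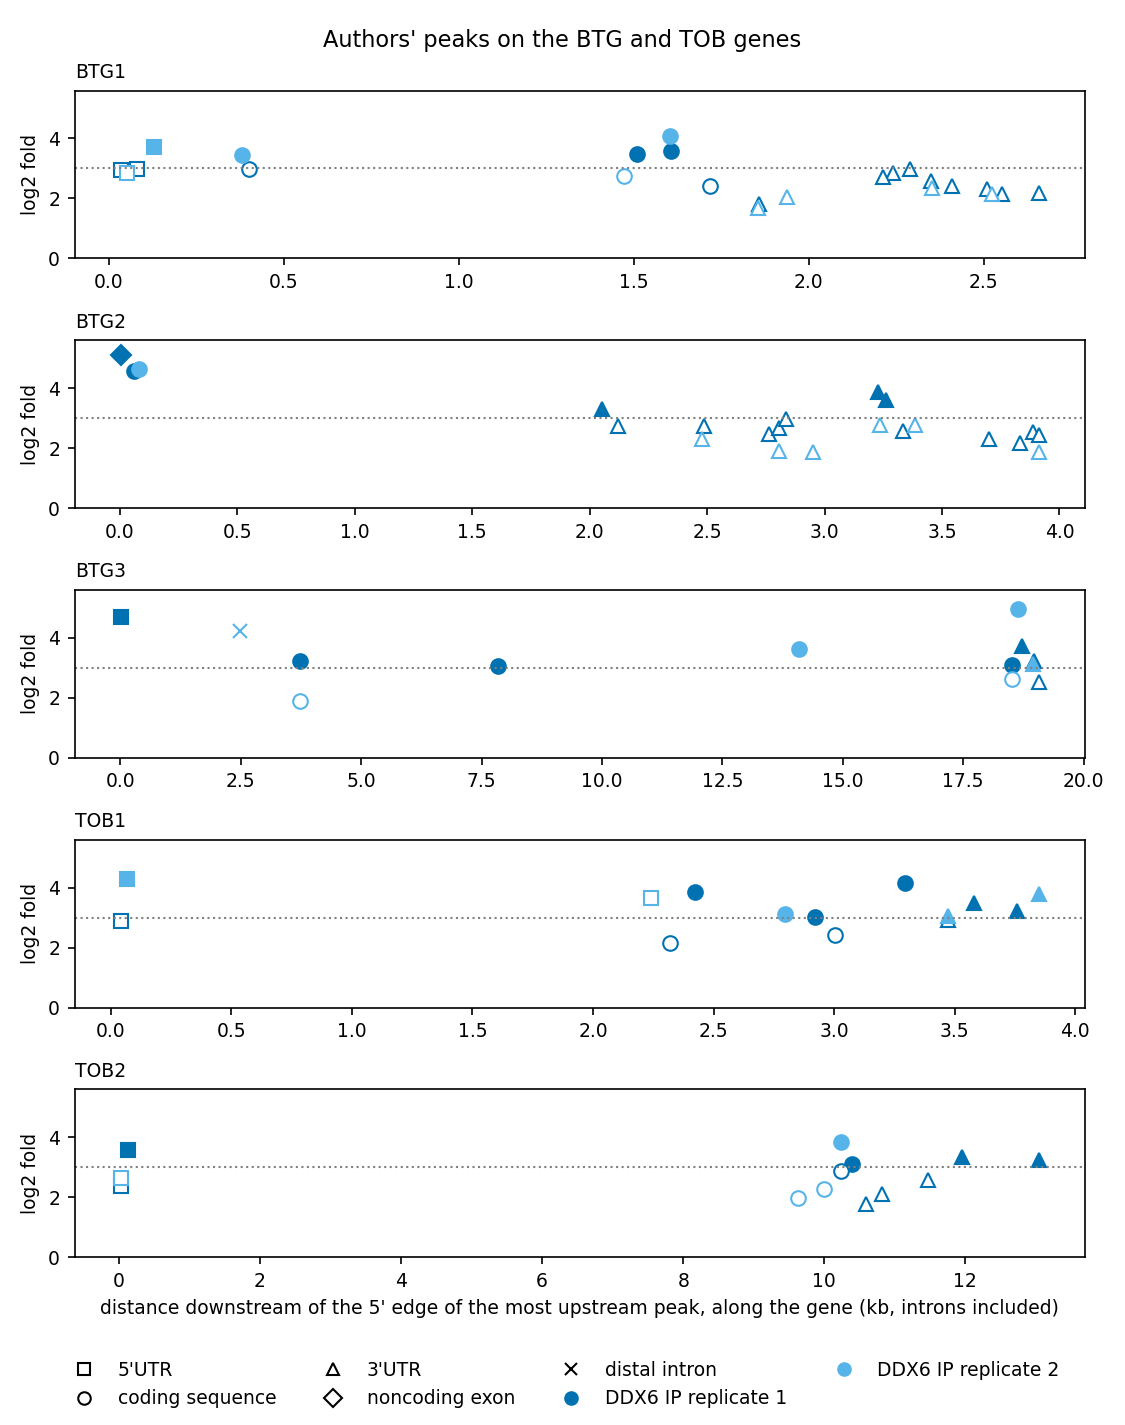
Log2 fold over input (y axis) of the authors' peaks along each BTG and TOB gene (x axis, kb downstream of the most upstream peak, introns included), coloured by IP library and shaped by region; filled symbols are significant, open ones are not, and the dotted line marks a log2 fold of 3. On BTG2 the filled points of both libraries meet at the left edge at 4.56 and 4.64, whereas on TOB2 no filled point of one library overlaps one of the other.

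Across the family, 5 pairs of significant peaks overlapped between the IP libraries by at least 1 base: 2 on BTG1 and 1 each on BTG2, BTG3 and TOB1. Both BTG1 pairs involve the same IP2 peak, which meets the second IP1 peak by 1 base, and the TOB1 pair shares 11 bases; 3 pairs overlap by at least 50% of the shorter peak. As a share of each list, 22.7% of the 22 member peaks in IP1 and 33.3% of the 12 in IP2 overlapped a significant peak of the other library, close to the 22.1% and 33.6% over all genes. How the authors' deposited list of 1587 reproducible peaks combined the replicates is not known. In it 3 of the 5 members had a significant peak, against 4.02% of the genes tested. The BTG2 start peak (chr1:203274653-203274760) ranked 336 by log2 fold (4.59) and 244 by -log10 p (50.7) in that deposited list. BTG2 had another 2 entries in the authors' deposited table, adjoining 3'UTR peaks at chr1:203277860-203277893 (log2 fold 3.33, -log10 p 10.7) and chr1:203277894-203277919 (3.13 and 5.94). For BTG1 the authors' deposited list held both coding sites, chr12:92537986-92538058 (log2 fold 3.98, -log10 p 10.9) and chr12:92539194-92539295 (3.22 and 24.3). For TOB1 the authors' deposited list held the 3'UTR site chr17:48939872-48940025 (log2 fold 3.05, -log10 p 5.43), and BTG3 and TOB2 had no entry.

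The mRNAs of the machinery that BTG and TOB proteins work with were read from the same fit over all genes. Of 11 CCR4-NOT subunit mRNAs, 2 were called higher in exonic reads, a share near the 16.7% of all genes, and none lower, with a median log2 fold of 0.36. The 2 were CNOT1, the scaffold subunit (810 and 890 CPM in the IPs, 364 in the input, log2 fold 1.22, edgeR adjusted p = 0.00150), and CNOT4, a ubiquitin ligase (150 and 111 against 63.3 CPM, log2 fold 1.07, edgeR adjusted p = 0.00163). The deadenylases that bind the BTG domain were not called, CNOT7 with a log2 fold of -0.55 (edgeR adjusted p = 0.0803) and CNOT8 with 0.28 (edgeR adjusted p = 0.479). Of 5 mRNAs for poly(A) tail binding or shortening, PABPC1, PABPC4, PAN2, PAN3 and PARN, none was called higher and 1 lower, with a median log2 fold of -0.04. The lower one was PABPC4, a cytoplasmic poly(A)-binding protein, with 138 and 134 CPM in the IPs and 239 in the input (log2 fold -0.81, edgeR adjusted p = 0.00624). With scaling to all counted reads, 15 of these 16 mRNAs were called higher and none lower, as most genes were. PABPC1, the partner of TOB proteins, had a log2 fold of -0.26 (edgeR adjusted p = 0.656). The DDX6 mRNA itself had 571 and 449 CPM in the IPs and 337 in the input and was not called (log2 fold 0.61, edgeR adjusted p = 0.0945).

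Genes with the most similar pattern were found by the mean absolute difference in 4 values, the log2 folds of coding sequence and 3'UTR in both IP replicates, over 6406 genes. Nearest to BTG1 were MAP3K1, MTPAP and PHF20 (0.070 to 0.078 log2). Nearest to BTG2 were ZNF557, KLF10 and PRDM2 (0.099 to 0.107). Nearest to TOB1 were RBBP6, PHF21A and PPP1R10 (0.066 to 0.073), and nearest to TOB2 were NCK2, PATZ1 and WBP1L (0.048 to 0.075). BTG3 was left out, as its 25 input reads were below the minimum of 30. These names depended on the measure: with intron folds added, 1 of the 12 stayed among the nearest.

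Related loci in the tables held few reads. The counts of these loci include intronic reads. BTG4, the remaining family member, had 2, 1 and 0 reads in IP1, IP2 and the input. The pseudogenes BTG1P1 and TOB2P1 had 0, 1 and 0 and 8, 1 and 4. The divergent transcripts BTG1-DT and BTG2-DT had 0, 1 and 7 and 3, 1 and 2, and the antisense RNAs BTG3-AS1 and TOB1-AS1 had 4, 2 and 5 and 10, 0 and 7. How the counting treated strand and reads that match several places is not given in the sources used here, so reads of a member and of an antisense partner or copy cannot be told apart.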

How the data were processed

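Per the labels' protocols, DDX6 eCLIP was made from MOLM-13 cells as 2 IP libraries and 1 input. The submitters' processing notes name UMI-tools, cutadapt, STAR, SAMtools and the build hg19. The counter, the annotation and the peak caller were not stated there or in the labels. The authors' deposited tables hold raw counts of reads for each gene, split by region of the transcript. Each peak in their deposited lists (1 list per IP library and 1 of reproducible peaks) has a -log10 p. It also has a log2 fold of IP over input in the deposited lists. Both units were read from the values, as the lists have no header. Of 29754 Ensembl identifiers, 28576 matched a symbol.

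Exonic reads per gene (4643494, 1244213 and 7807540 counted reads in all, intergenic shares of 4.05%, 3.78% and 2.63% left out) were tested with edgeR 4.0.16 in R 4.3.3: TMM, at least 10 reads in at least 2 of 3 libraries, glmQLFit, glmQLFTest and Benjamini-Hochberg adjustment over all genes. Gene regions went through 1 such fit with introns included in the scaling. The spread came from the 2 IP libraries (1 residual degree of freedom, coefficient of variation 16.5% for genes and 18.9% for regions), and the input was assumed to vary like them. With 75.8 prior degrees of freedom in the gene fit, the variance of each gene was drawn mostly from all genes together. SEs and p-values thus reflect little of a gene's own replicate spread. The test of a difference between regions of a gene was added after seeing the data. Shares have exact Clopper-Pearson intervals at 95%. Scripts were tested on simulated data. DESeq2 1.42.0 was an alternative.

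The text names all members, DDX6, called genes of the pathway lists, each member's leading and reproducible peaks, the 3 nearest genes in pattern, and copies or antisense partners. The values of CNOT7, CNOT8, PABPC1 and a few further peaks were added after they were seen. The members and lists were chosen with earlier results of these data known.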

Additional observations from a re-analysis of the deposited data

How the results depend on the processing

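No member value changed sign under any alternative run. Scaling to all counted reads moved the median log2 fold of all genes by 1.24, from 0.00, and gave 6990 genes higher and 141 lower in place of 1739 and 1188; the member folds then ran from 2.07 (TOB2) to 3.79 (BTG3), all above that median. Genes called higher were 679 with DESeq2 and 1100 with at least 30 reads, and genes called lower were 256 with DESeq2 and 2394 with intronic reads included. For the CCR4-NOT and poly(A) tail genes, 2 higher and 1 lower at first, calls higher were 1 with DESeq2, 15 with scaling to all counted reads and 1 with intronic reads; calls lower were 0 with DESeq2, scaling to all counted reads or no read filter, and 2 with intronic reads or with coding sequence and 3'UTR alone. Gene regions called, 7054 higher and 9183 lower at first, were 3390 and 5907 with DESeq2, 3451 and 11321 with TMM factors of exonic reads, 11607 and 6947 with scaling to all counted reads, 5048 and 10857 with no read filter, and 4562 and 9741 with TMM factors taken before the read filter, an alternative chosen after seeing the data. Over these the BTG2 5'UTR log2 fold ran from 3.82 to 5.03 and stayed called. Member regions called higher, 14 at first, ran from 10 to 16, and those called lower, 3 at first, were 1 with DESeq2, 1 with scaling to all counted reads and 1 with at least 30 reads. At 30 reads the introns of BTG2 and BTG3 had too few reads to be tested, and those of TOB2 stayed called (edgeR adjusted p = 0.00304). With at least 30 reads, 1 member (BTG2) had its 5'UTR called above its 3'UTR, in place of 0. The TOB2 3'UTR and 5'UTR also lost their calls without a read filter (edgeR adjusted p = 0.105 and 0.155) and with TMM factors taken before the filter (0.0679 and 0.0743), and the TOB2 5'UTR with TMM factors of exonic reads (0.213). With a peak log2 fold of at least 1, member peaks numbered 54 and 23 in place of 22 and 12, and shared sites 26 in place of 5; an overlap of at least 50% of the shorter peak left 3. Of the 12 nearest genes, 7 were kept at 100 input reads and 1 with introns. The minimum of 100 left out TOB1 itself (94 exonic input reads), and with it the neighbours of TOB1, as well as PHF20 (83). Leaving out an IP replicate leaves no residual degree of freedom, so it gave values with no test and no counts of calls. No paired analysis was possible because there was only 1 input. The single input, and the 25 exonic reads of BTG3 and 7 5'UTR reads of BTG2 in it, limit the precision of those folds.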
